A study of Mus musculus with 6 samples.

Results

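The proteasome genes measured here are the subunits, activators and dedicated chaperones whose symbols begin with Psma, Psmb, Psmc, Psmd or Psme followed by a digit. RNA of the quadriceps, the front muscle group of the thigh, was read on Illumina bead arrays, 1 per mouse, in newborn C57BL/6 mice of 0 days. The arrays came from 3 Klhl40 knockout mice (KO 1 to KO 3) and 3 wild-type littermates (WT 1 to WT 3). Klhl40 encodes a kelch protein of striated muscle that binds nebulin and leiomodin-3, and the design took tissue at birth so that poor feeding of the mutants would weigh less on the comparison. The labels do not say how the allele was made. The array annotated 45 such symbols on 80 probes, and 39 symbols had a probe with a detection p under 0.05 on at least 3 of the 6 arrays. The brightest detected probe stood for its gene, so that 39 of the 13455 genes tested were members. That total holds 10493 symbols and 2962 probes without a single symbol, each taken as a gene. Of these, 37 encode parts, chaperones or activators of the proteasome. Psmc3ip and Psme3ip1 met the naming rule but encode proteins named for binding partners, and they were kept apart.

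The proteasome is the protease that degrades ubiquitin-tagged proteins. Its barrel-shaped core is made of outer alpha rings, which gate the channel, and inner beta rings, which hold the active sites. A regulatory particle caps the core: its base unfolds substrates with a ring of ATPases, and its lid removes ubiquitin. Alternative caps, the Psme activators, open the gate without ATP. In skeletal muscle the proteasome degrades myofibril proteins tagged by muscle ubiquitin ligases, and subunit transcripts are known to be raised in wasting muscle.

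No proteasome gene passed the test between the genotypes, and most members had small differences above 0. By limma, 0 of the 39 members had an adjusted p under 0.05, beside 0.111% of all genes tested that were higher and 0.0372% that were lower in KO. At an unadjusted p under 0.05, 6 members were higher in KO (15.4%) and 0 were lower, against 3.89% and 3.38% of all genes. These 6 were Psmd11, Psmd6, Psmd12 and Psmd8 of the lid, and Psmd2 and Psmc5 of the base. Membership depended on the processing. Without background correction limma gave 9 higher and 1 lower, Psme2 (unadjusted p = 0.0450). Psmd6 dropped out there, at an unadjusted p of 0.134 by limma. Psmb1 of the core joined at a limma p of 0.0279, the ATPases Psmc3 and Psmc4 at 0.0412 and 0.00651, and the chaperone Psmd10 at 0.0403. With no detection filter the same 4 genes joined and Psmd6 stayed, and Psme2 was again the 1 lower. The count was 3 without KO 1, 2 without KO 3, 3 without WT 1 and 2 without WT 2. With the replicate number as a block 0 members passed the adjusted threshold, against 0.134% of all genes higher and 0.0595% lower. The KO minus WT difference, on the log2 scale of normalised intensity, lay above 0 for 30 of 39 members (76.9%, against 49.4% of all genes). The 9 below 0 included 3 of the 4 activators and 2 of the 3 inducible beta subunits. The median difference was 0.082 over the 39 members and -0.0022 over all genes tested. The median standard error was 0.10 for the members and 0.13 for all genes. With each array left out in turn, 26 to 31 members lay above 0. Over all the alternatives described below, the lowest count was 25.

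**Figure D1:**
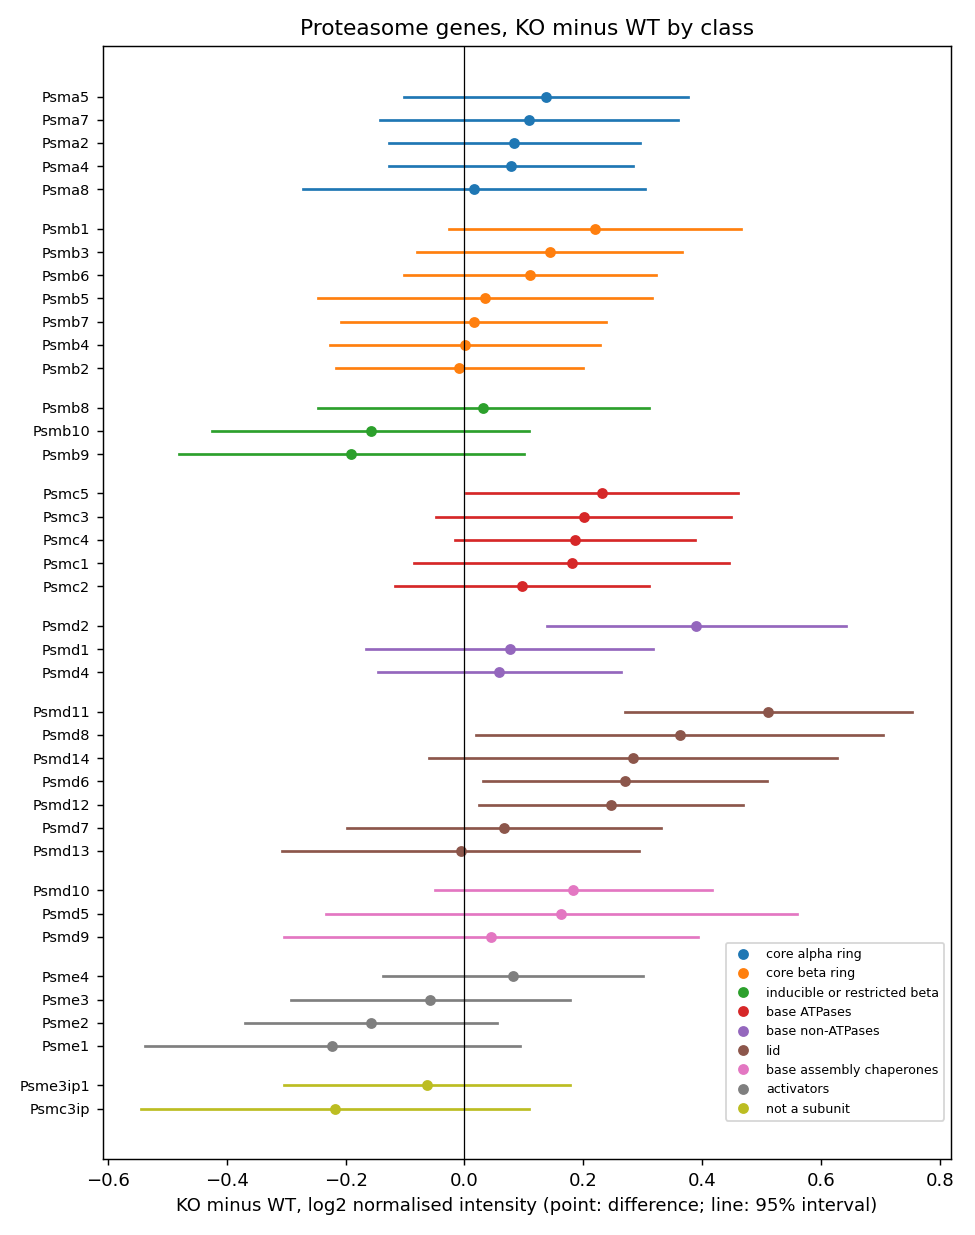
KO minus WT difference of each detected member in log2 normalised intensity (point) with its 95% interval (line), grouped and coloured by class. The lid and base genes lie mostly right of 0, led by Psmd11 at 0.51, while Psme1, Psme2, Psmb9 and Psmb10 lie left of it with intervals that include 0.

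The labels were checked first. Klhl40 had 4.79, 5.72 and 4.46 on the KO arrays and 10.63, 10.77 and 10.76 on the WT arrays, a difference of -5.73 (SE 0.29, limma adjusted p = 0.00115). No source says whether the deletion covers this probe. The tissue label was borne out by Acta1, Ckm, Mylpf, Tnnt3 and Des, whose group means ran between 13.36 and 15.01 on the log2 scale. The arrays detected 18373 to 19086 probes in KO and 18704 to 19189 in WT. WT 3 stood apart: its score on the first principal component of all genes, which took 44.2% of the variance, was 32.4, and the scores of the other 5 arrays ran between -14.6 and 8.29. Of 7 adipocyte markers 4 were tested, and their summed scanner intensity was 6039 on WT 3, 1128 to 1495 on the KO arrays and 922 and 1761 on the other WT arrays. For members read on their brightest probe, differences that moved by over 1.5 times without WT 3 are given both ways. Differences of other genes and of further probes, and medians, include WT 3 unless stated. Some of these, such as that of Irf1, move by more without it. In whole muscle, fewer cells of a type and less RNA per cell cannot be told apart.

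Psmd11 was the member with the smallest p. It encodes a scaffold subunit of the lid (Rpn6 in yeast) that clamps the lid to the core. Its log2 intensity was 7.83, 7.80 and 7.81 on the KO arrays and 7.32, 7.43 and 7.15 on the WT arrays. The KO values fell within a span far narrower than the gap to the WT values, and the groups did not overlap. The difference was 0.51 (SE 0.10, 95% interval 0.27 to 0.75), a 1.43-fold higher level in KO, with an unadjusted p of 0.00136, which ranked 79 among the 13455 genes. The limma adjusted p was 0.227, so the difference did not pass the test, and the alternatives gave adjusted p-values between 0.117 and 0.715. The difference was 0.34 without background correction, and it lay between 0.44 and 0.58 when each array was left out in turn.

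A second Psmd11 probe gave a similar value. It had 5.78, 5.79 and 5.99 on the KO arrays and 5.33, 5.19 and 5.37 on the WT arrays, a difference of 0.56 (unadjusted p = 0.00101 and adjusted p = 0.217 in a limma fit over all 19099 detected probes). The groups did not overlap on this probe either, although the probe was dim, at scanner intensities of 147 in KO and 130 in WT. Both probes were read on the same arrays, so they are not independent samples of the genotype.

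The other lid genes were spread from near 0 upward, and 6 of 7 lay above 0 with a median of 0.27. Psmd12, a scaffold subunit of the lid, had 10.62, 10.58 and 10.76 on the KO arrays and 10.36, 10.43 and 10.43 on the WT arrays. Its groups did not overlap, and the difference was 0.25 (SE 0.095, unadjusted p = 0.0335, adjusted p = 0.624). Psmd6, another scaffold subunit, had 5.33, 5.29 and 5.47 on the KO arrays and 5.14, 4.99 and 5.17 on the WT arrays. Its groups did not overlap either, but the probe lay near background, and the difference of 0.27 (SE 0.10, unadjusted p = 0.0311, adjusted p = 0.616) was 0.080 without background correction.

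Psmd8, which joins the lid late in its assembly, had 10.81, 10.48 and 10.98 on the KO arrays and 10.31, 10.34 and 10.54 on the WT arrays. KO 2 lay below WT 3, so the groups overlapped, and the difference was 0.36 (SE 0.15, unadjusted p = 0.0410, adjusted p = 0.658). This probe was read from 18 to 31 beads, and the standard error over beads reached 9.94% of the intensity, the largest among the members. A second, dimmer Psmd8 probe went the other way, at -0.25, with 4.95, 5.02 and 5.24 on the KO arrays and 5.34, 5.36 and 5.26 on the WT arrays. Psmd14, the deubiquitinase of the lid, had a difference of 0.28 (SE 0.15), with 7.76, 8.01 and 8.12 on the KO arrays and 7.84, 7.77 and 7.43 on the WT arrays. Without WT 3 it was 0.16. Psmd7, the partner of Psmd14, had a difference of 0.067, which was 0.016 without WT 3, and its further probes gave 0.16 and 0.21. Psmd13, a scaffold subunit, had -0.0061, and -0.13 without WT 3.

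**Figure D2:**
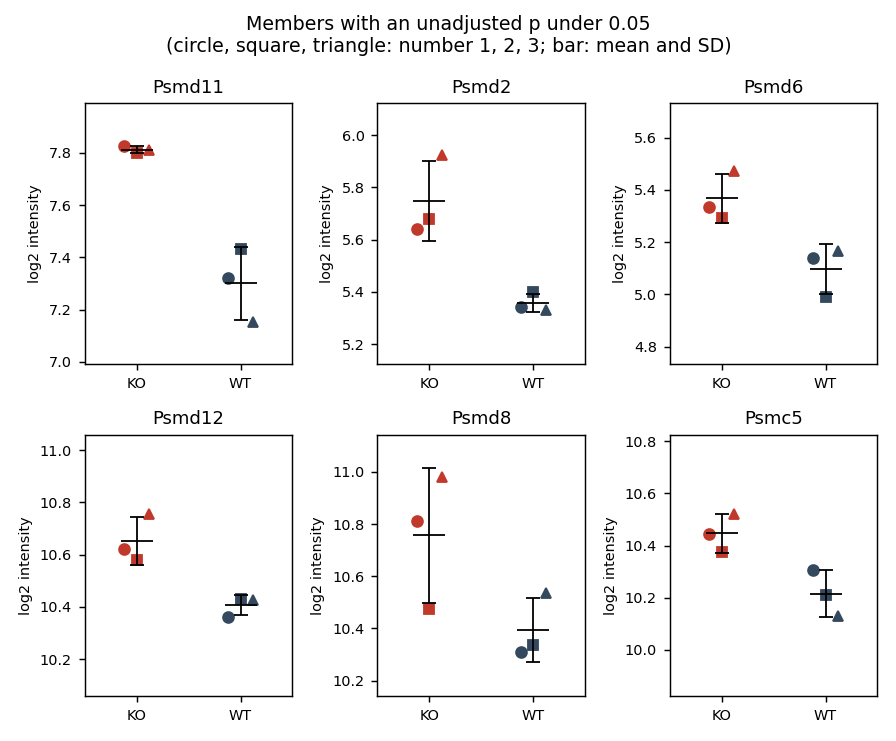
Log2 normalised intensity of the 6 members with an unadjusted p under 0.05 on each array, KO left and WT right, with the mean and SD of 3 arrays as bars; each panel spans 1 log2 unit. The groups do not overlap for Psmd11, Psmd2, Psmd6, Psmd12 and Psmc5, and they overlap for Psmd8, where KO 2 lies below WT 3.

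In the base, all 8 genes measured lay above 0. The ATPases had a median difference of 0.19 over 5 genes, from 0.097 for Psmc2 to 0.23 for Psmc5. Psmc2 was 0.061 without WT 3. Psmc5 had 10.45, 10.37 and 10.52 on the KO arrays and 10.31, 10.21 and 10.13 on the WT arrays. The groups did not overlap, and the difference was 0.23 (SE 0.098, unadjusted p = 0.0484, adjusted p = 0.678). With the replicate number as a block the unadjusted p was 0.0557, and a second Psmc5 probe gave 0.036. Psmc4 also had no overlap, with 11.37, 11.36 and 11.40 on the KO arrays and 11.23, 11.16 and 11.19 on the WT arrays, and a difference of 0.19 (SE 0.087). Psmc3 and Psmc1 had differences of 0.20 and 0.18, and Psmc1 was 0.097 without WT 3.

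Psmd2 is a large scaffold of the base that binds ubiquitin-like shuttle proteins and the deubiquitinase Usp14. It had 5.64, 5.68 and 5.92 on the KO arrays and 5.34, 5.40 and 5.33 on the WT arrays. All KO values lay above all WT values, with a difference of 0.39 (SE 0.11, unadjusted p = 0.00752, adjusted p = 0.421). The probe was dim, at scanner intensities of 143 ± 8.39 in KO and 132 ± 1.90 in WT (SD, n = 3 each), and the difference was 0.13 without background correction. The other large scaffold, Psmd1, had a difference of 0.076, and the ubiquitin receptor Psmd4 had 0.058. Psmd1 was 0.034 without WT 3.

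In the core, of 12 alpha and constitutive beta genes 11 lay above 0, with a median of 0.081, and their 95% intervals together spanned -0.27 to 0.47. None had an unadjusted p under 0.05. Whether the core differed less than the regulatory particle was not tested. In the alpha ring, Psma5 had 12.91, 12.97 and 13.05 on the KO arrays and 12.78, 12.97 and 12.76 on the WT arrays, a difference of 0.14 (SE 0.10) with overlapping groups. A second, dim Psma5 probe had 5.71, 5.84 and 5.67 on the KO arrays and 5.48, 5.52 and 5.50 on the WT arrays. Its groups did not overlap, and its difference was 0.24 (unadjusted p = 0.0402, adjusted p = 0.673 in the limma fit over probes). Psma7, Psma2 and Psma4 had 0.11, 0.084 and 0.078. For Psma2 and Psma4 all KO values lay above all WT values, by small margins, and Psma2 was 0.044 without WT 3. Psma8, a subunit of the testis, was the member nearest to the detection limit, detected on 2 KO arrays and 1 WT array, and had a difference of 0.016, and -0.041 without WT 3. Just outside the limit, a Psmc6 probe was detected on 2 arrays.

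In the constitutive beta ring, Psmb1 had 10.93, 10.65 and 10.78 on the KO arrays and 10.54, 10.62 and 10.54 on the WT arrays. The groups did not overlap, and the difference was 0.22 (SE 0.11, unadjusted p = 0.0731, adjusted p = 0.733). Psmb3 had 0.14 and Psmb6 0.11, while Psmb5, Psmb7, Psmb4 and Psmb2 lay between -0.0084 and 0.035. Psmb7 was read by 4 detected probes, which gave 0.015 to 0.21. Without WT 3 Psmb5 had 0.062, Psmb7 -0.019, Psmb4 -0.023 and Psmb2 -0.031.

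Counted over the 39 members, all KO values lay above all WT values for 12 (30.8%, against 6.93% of all genes) and below them for 1, Psme2 (against 6.42% of all genes). The labels state that littermates were used but tie no number to a litter, and KO and WT arrays of the same number were taken as pairs. In KO against the WT array of the same number, 16 members were higher in 3 of 3 pairs (41.0%, against 17.2% of all genes). These 16 include the 12 above, because a gene whose KO values all exceed its WT values is higher in every pair. The pairs did not contribute alike. In pair 3, 32 of 39 members were higher in KO with a median difference of 0.16, against 24 in pair 1, with a median of 0.056, and 26 in pair 2, with a median of 0.055. Over all genes the pair medians lay between -0.0049 and 0.0049. By class, the medians of pair 2 were -0.056 for the beta ring and 0.032 for the inducible subunits. Both were opposite in sign to the class medians over all arrays, and the other classes kept their sign in each pair.

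**Figure D3:**
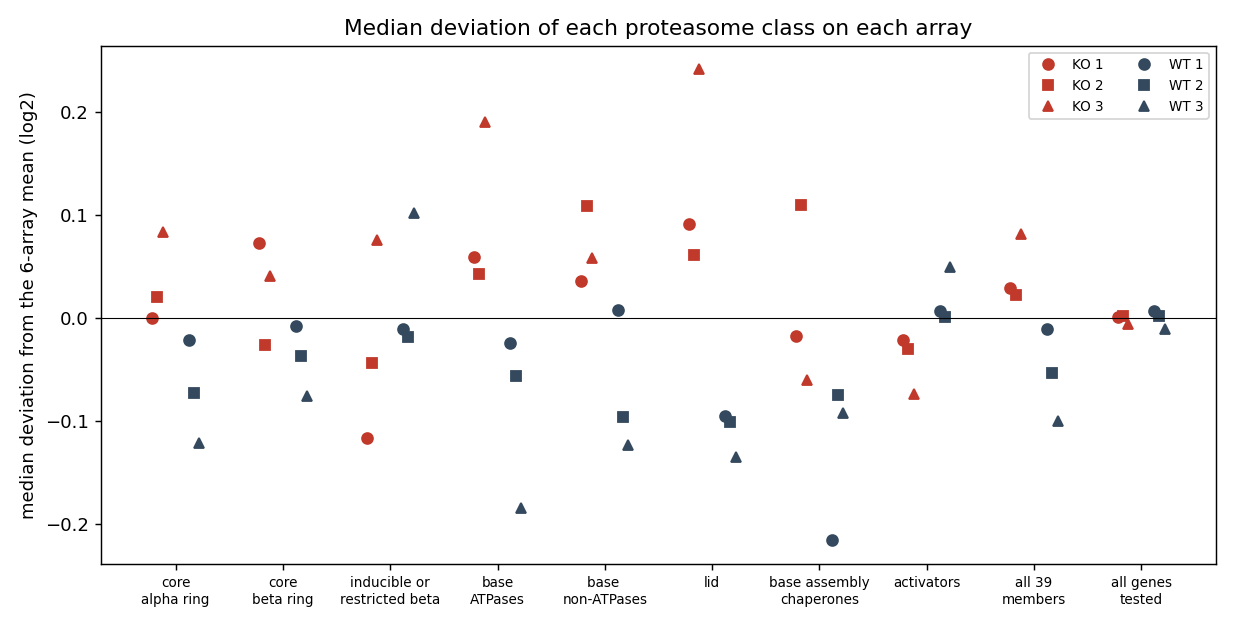
Median deviation of each class on each array from the members' own means over 6 arrays (log2), with KO arrays in red and WT arrays in dark blue, and the marker giving the number. All 3 KO arrays lie above all 3 WT arrays for the alpha ring, both base classes, the lid and the chaperones, and below them for the activators; the groups overlap for the beta ring and the inducible subunits, and all genes tested lie near 0.

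The lid median deviated by 0.092, 0.062 and 0.24 on the KO arrays and by -0.095, -0.10 and -0.13 on the WT arrays. For the base ATPases it was 0.059, 0.043 and 0.19 on the KO arrays and -0.024, -0.056 and -0.18 on the WT arrays. KO 3 was highest and WT 3 lowest in both, and the groups did not overlap. The alpha ring, the base non-ATPases and the chaperones did not overlap either, with KO above WT. Without WT 3 the median difference was 0.26 for the lid and 0.16 for the ATPases. Without KO 3 it was 0.20 for the lid and 0.15 for the ATPases. On the first principal component of the 39 members (54.6% of their variance) the KO arrays lay at 0.53, 0.22 and 0.96 and the WT arrays at -0.48, -0.36 and -0.86, which is a description of these arrays with no test. Whether the classes differ from each other was not tested.

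The base assembly chaperones, which escort ATPase pairs and are absent from the finished particle, had a median difference of 0.16 over 3 genes. Psmd10, also known as gankyrin, had 9.52, 9.67 and 9.76 on the KO arrays and 9.45, 9.48 and 9.47 on the WT arrays, without overlap and with a difference of 0.18 (SE 0.10). Its 3 detected probes gave 0.066 to 0.27. Psmd5 had 0.16 and Psmd9 0.045, both with overlapping groups. Psmd5 was 0.31 without WT 3 and 0.024 without WT 1, and Psmd9 was -0.014 without WT 3.

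**Figure D4:**
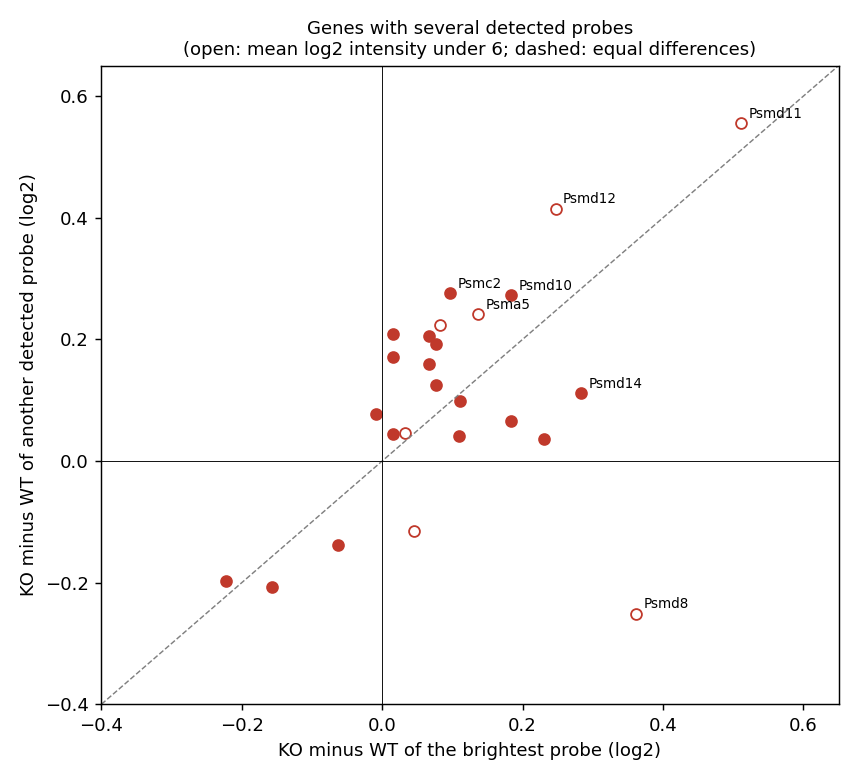
KO minus WT difference of each further detected probe (vertical, log2) against that of the brightest probe of the same gene (horizontal, log2), with open circles for probes of mean log2 intensity under 6 and a dashed line of equal differences. Psmd11 lies near the line at the top right, and Psmd8 lies far below it.

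Several probes were detected for 20 of the 39 symbols. For 17 of them all probes had the same sign, and for 3, Psmb2, Psmd8 and Psmd9, they did not. The second Psmd12 probe gave 0.41 and the second Psmc2 probe 0.28, both above the value of the brighter probe. Both second probes were dim, and their groups overlapped, with KO 2 below WT 1. In the limma fit over probes their unadjusted p-values were 0.0818 and 0.0858. Psmd14 gave 0.11 on its second probe, and Psmd1 gave 0.13 and 0.19 on its further probes.

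Of the inducible subunits and activators, 5 of 7 lay below 0 and Psmb8 and Psme4 above it, with 0 past the threshold by limma and 0 at an unadjusted p under 0.05. Psmb8, Psmb9 and Psmb10 replace the active subunits Psmb5, Psmb6 and Psmb7 in the immunoproteasome, which leukocytes carry and interferon induces. Psmb9 had 5.25, 5.47 and 5.62 on the KO arrays and 5.54, 5.75 and 5.62 on the WT arrays, close to background, with a difference of -0.19 (SE 0.12). It was -0.064 without background correction and -0.091 without KO 1. Psmb10 had 8.22, 8.34 and 8.17 on the KO arrays and 8.31, 8.31 and 8.59 on the WT arrays, a difference of -0.16 (SE 0.11) that was -0.065 without WT 3. Psmb8 had 6.71, 6.78 and 7.04 on the KO arrays and 6.76, 6.75 and 6.93 on the WT arrays, a difference of 0.032 (SE 0.12), which was 0.091 without WT 3. The groups overlapped for all 3. Second probes gave -0.21 for Psmb10 and 0.046 for Psmb8. The constitutive partners had differences of 0.035 for Psmb5, 0.11 for Psmb6 and 0.015 for Psmb7.

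Psme1 and Psme2 encode the alpha and beta chains of the interferon-induced activator ring. Psme1 had 9.99, 10.33 and 10.10 on the KO arrays and 10.27, 10.25 and 10.57 on the WT arrays. Its difference of -0.22 (SE 0.14, unadjusted p = 0.141, adjusted p = 0.827) was -0.12 without WT 3, and a second probe gave -0.20. Psme2 had 8.37, 8.36 and 8.39 on the KO arrays and 8.45, 8.58 and 8.56 on the WT arrays. All KO values lay below all WT values, with a difference of -0.16 (SE 0.091, unadjusted p = 0.126, adjusted p = 0.814), and -0.14 without WT 3. The mouse genome also holds Psme2b, a close copy of Psme2, and whether the probe tells them apart was not tested.

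The other activators are not induced by interferon. Psme3, the nuclear activator, had 8.73, 8.66 and 8.61 on the KO arrays and 8.85, 8.64 and 8.68 on the WT arrays, a difference of -0.057 (SE 0.10). Psme4, a large single-chain activator of the nucleus, had 11.17, 11.08 and 11.18 on the KO arrays and 11.11, 11.11 and 10.98 on the WT arrays, a difference of 0.082 (SE 0.094) that was 0.039 without WT 3. The groups overlapped for both. A second, dim Psme4 probe had 4.92, 4.99 and 4.87 on the KO arrays and 4.67, 4.62 and 4.82 on the WT arrays. All KO values lay above all WT values on it, with a difference of 0.22 (unadjusted p = 0.0635, adjusted p = 0.731 in the limma fit over probes). The 2 members that are not subunits had differences of -0.22 for Psmc3ip and -0.063 for Psme3ip1, which was -0.13 without WT 3.

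**Figure D5:**
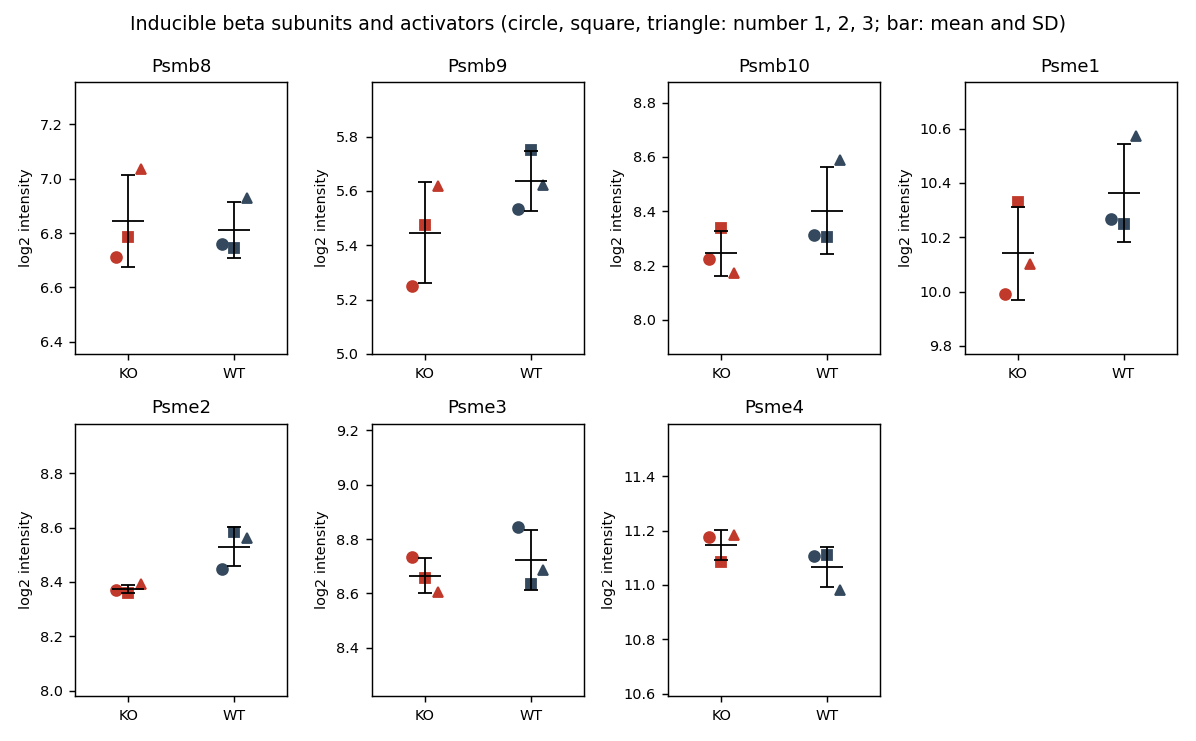
Log2 normalised intensity of the inducible beta subunits and the activators on each array, KO left and WT right, with the mean and SD of 3 arrays as bars; each panel spans 1 log2 unit. Only Psme2 shows no overlap in these 7 panels, with all 3 KO arrays below all 3 WT arrays, and WT 3 is the highest array for Psmb10 and Psme1.

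With WT 3 included, leukocyte and interferon genes lay below 0 alongside these members. The direction was not particular to them: 7 of 7 endothelial, 3 of 3 erythroid, 4 of 4 adipocyte and 5 of 6 fibroblast markers also lay below 0. Many of these signs depended on WT 3. Without it Emcn, Tie1, Pecam1, Cdh5, Adipoq, Cidec, Alas2 and Col1a1 lay above 0, and the other markers of these lists below it. Of 13 macrophage and leukocyte markers 11 were tested, all at a difference below 0 (median -0.18) with WT 3 included. By limma 0 passed the threshold, and 2, Cd52 and C1qa, had an unadjusted p under 0.05. C1qc (-0.0074, SE 0.096) and Tyrobp (-0.026, SE 0.21) lay nearest to 0, well within their standard errors. Without WT 3, Lyz2, Tyrobp and C1qc lay above 0 and the other markers of this list below it. The summed scanner intensity of the 11 markers was 4941 to 5495 on the KO arrays and 5520 to 6719 on the WT arrays, highest on WT 3. Their median deviation was 0.25 on WT 3, -0.026 and 0.016 on the other WT arrays and -0.26, 0.026 and -0.057 on the KO arrays. Of 10 interferon and antigen presentation genes 6 were tested, and all 6 lay below 0 with WT 3 included (median -0.16, and -0.019 without WT 3). The 3 with the smallest p were the peptide transporter gene Tap2 at -0.33, the transcription factor gene Irf1 at -0.22 and the loading factor gene Tapbp at -0.18. Without WT 3 these stayed below 0, while H2-D1, B2m and H2-K1 lay above it. On WT 3 the median interferon gene lay 0.43 above its mean, against -0.14 to 0.015 on the KO arrays and -0.098 and -0.088 on the other WT arrays. The part of these cells and genes in the differences of Psmb9, Psmb10, Psme1 and Psme2 was not tested. In the gene order of assembly GRCm38.p6, Psme1 and Psme2 lie on chromosome 14 with 1 protein-coding gene between them, and Psmb9 and Psmb8 lie on chromosome 17 with only Tap1 between them.

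Genes that build, regulate or feed the proteasome showed no member past the threshold. Limma called 0 of the 29 tested genes of 5 lists, and 0 had an unadjusted p under 0.05. Among assembly factors and inhibitors 6 of 10 were tested, with a median of -0.045. The assembly chaperone gene Psmg2 had -0.18, Psmg3 0.088 and the proteasome adaptor gene Ecpas -0.068, and Pomp, which matures the core, had 0.035. Among ubiquitin receptors and deubiquitinases 8 of 13 were tested, with a median of 0.027. The shuttle gene Rad23b had 9.25 ± 0.053 in KO and 9.03 ± 0.14 in WT (SD, n = 3 each), without overlap and with a difference of 0.22 (unadjusted p = 0.0706). The shuttle genes Ubqln1 and Ubqln4 had 0.15 and -0.12.

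Proteasome transcription depends on Nfe2l1, which is cleaved and released from the endoplasmic reticulum when the proteasome is impaired and then binds antioxidant response elements in subunit genes. Of 11 genes of this route 8 were tested, with a median of 0.089. Nfe2l1 had a difference of 0.21 (SE 0.12, unadjusted p = 0.122), with 11.25 ± 0.20 in KO and 11.04 ± 0.045 in WT (SD, n = 3 each) and overlapping groups. Nploc4, a cofactor of the extraction ATPase, had 0.19, and Keap1, which restrains the related factor Nfe2l2, had 0.098. Of the ubiquitin and activation genes 1 of 6, the activating enzyme gene Uba6, was tested, at -0.14.

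The promoters of the members were then searched, because Nfe2l1 is known to act through that element. The RefSeq table of assembly GRCm38.p6 held a promoter for 31 of the 37 genes. The core of the element, TGACNNNGC on either strand, stood in the 250 bases before the start of 4 of the 31 (12.9%), against 13.5% of the 8470 tested genes with a promoter in the table. The CCAAT box, CCAAT on either strand, stood in 10 of the 31 (32.3%), against 40.4%. The motifs were counted separately, and both shares lay near or below that background. Whether Nfe2l1 binds at any match was not tested. The stretches that match the core of the element are printed 5′ to 3′ on the gene's strand with the match in capitals.
Psmb5, chr14:54618022-54618054, minus strand: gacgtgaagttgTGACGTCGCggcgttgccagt
Psmb6, chr11:70525336-70525356, plus strand: gactaaagagagTGACGGAGC
Psmd9, chr5:123228147-123228179, plus strand: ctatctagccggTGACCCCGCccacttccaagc
Psmd12, chr11:107479278-107479301, plus strand: tctGCTGTGTCAcatttgcccccc
The match began 47, 9 and 31 bases before the start for Psmb5, Psmb6 and Psmd9. For Psmd12 it lay on the opposite strand and began 247 bases before the start. These 4 genes had differences of 0.035 for Psmb5, 0.11 for Psmb6, 0.045 for Psmd9 and 0.25 for Psmd12. Psmd11, Psmd2, Psmd6, Psmd8 and Psmc5 held neither motif in this window, which says only that these letters are not in it.

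Of the 45 annotated symbols, 6 had no probe above the detection limit: Psma1, Psma3, Psma6, Psmb11, Psmc6 and Psmd3. Psmb11 is the beta subunit of the thymus. Psma1, Psma3 and Psma6 encode alpha subunits of the core, Psmc6 an ATPase of the base and Psmd3 a lid subunit. The level of these genes was not measured here. With no filter on detection, over all 45 symbols, 33 lay above 0 and the median difference was 0.076. The 6 added symbols were not detected, so this count adds no measurement of their level. The share of all genes above 0 in that setting was not taken.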

How the data were processed

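The values come from a probe table deposited by the authors. Per the file headers it holds the bead-averaged intensity with a standard error. Per the file headers it also holds the bead count and the p-value of detection. The labels' protocols give Trizol extraction and Cy3-labelled cRNA made with an Ambion MessageAmp kit. The sources used here name no scanner, software or array batch. A second deposited table holds 1 intensity per probe and array, on a linear scale and with nearly equal columns, and served as an alternative.

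Intensities were normalised with neqc of limma 3.58.1 in R 4.3.3 (normexp background correction from the detection p-values, offset 16, quantile normalisation, log2). Probes needed a detection p under 0.05 on 3 of 6 arrays, and the probe with the highest mean intensity stood for its symbol. The KO minus WT contrast was tested two-sided in limma (lmFit, then eBayes), and p-values were adjusted by Benjamini-Hochberg over 13455 genes, with a threshold of 0.05. Probe symbols came from the platform annotation, and all 39 members were found in RefSeq. With 3 arrays per group, the number of arrays limits the precision.

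The members, classes and lists were chosen with earlier results of these data known. Values on every array were given for members with an unadjusted p under 0.05, the smallest p of each class, and all inducible subunits and activators. Psmc4, Psmd14 and the second probes were added after their values were seen. From the other lists the 3 smallest p were named, and Pomp was added. Fibroblast, endothelial and erythroid markers were listed too, with median differences of -0.090 over 6, -0.077 over 7 and -0.097 over 3 genes. Of 7 skeletal muscle markers 6 were tested, with a median of 0.016 and a range from -0.12 for Tnnt3 to 0.25 for Des. Among them Myh8 had the same value, 15.23, on all 6 arrays. The 4 adipocyte markers had -0.90, a value that depends on WT 3. Their median deviation was 1.91 on WT 3, 0.16 and -1.02 on the other WT arrays and -0.56 to -0.22 on the KO arrays. For the endothelial markers it was 0.19 on WT 3, -0.043 and -0.024 on the other WT arrays and -0.13 to 0.0071 on the KO arrays.

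KO mice were taken alongside wild-type littermates, per the labels. Arrays of the same number had correlations of 0.34, 0.22 and 0.46 between their deviations from the group means, and other KO and WT arrays had -0.41 to 0.24, so the numbers were taken as pairs, although no label ties a number to a litter and KO 1 with WT 2 (0.24) exceeded KO 2 with WT 2 (0.22). Alternatives were no background correction, median centring, the second table, no detection filter, detection on all 6 arrays, the second brightest probe, the replicate block, array weights and each array left out.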

Additional observations from a re-analysis of the deposited data

How the results depend on the processing

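No member passed the adjusted threshold under any of 15 alternatives. One of these, leaving out pair 3 (KO 3 and WT 3), was chosen after seeing the data. Every class median kept its sign under all 15. In pair 2 alone, however, the medians of the beta ring and of the inducible subunits had the opposite sign. Members higher at an unadjusted p under 0.05 numbered 2 with median centring, 10 (and 1 lower) with no detection filter, 3 without pair 3 and 2 to 6 (0 to 1 lower) without each array in turn. Without background correction, and likewise with the second deposited values, 9 were higher and 1 lower. With median centring 7 members had all KO values above WT. Over all genes the replicate block gave 18 higher and 8 lower calls, in place of 15 and 5, and changed no member's call. Calls over all genes were 35 higher and 11 lower with array weights, 23 and 8 without background correction or with the second deposited values, 0 and 1 with no detection filter, 7 higher without pair 3, and 0 to 15 higher and 1 to 9 lower without each array. The inducible subunits had a median of -0.074 with array weights, -0.064 without background correction or with the second deposited values, -0.063 with no filter, -0.029 without pair 3, and -0.20 to -0.065 without each array. The lid had 0.20 without background correction or with the second deposited values, 0.21 with second probes, 0.21 without pair 3 and 0.20 to 0.29 without each array. The chaperones had 0.075 without background correction or with the second deposited values, 0.066 with second probes and 0.024 to 0.19 without each array. The beta ring had 0.099 with second probes and 0.0027 to 0.13 without each array, and the base non-ATPases 0.047 to 0.15. The activators had -0.15 with median centring and -0.072 without pair 3, and all members 0.041 without pair 3. The differences of 11 members turned sign in places, with none past the threshold, and all but that of Psmd8 were near 0. Array weights gave Psma8 -0.023, Psmb4 -0.013, Psmb7 -0.021 and Psmd7 -0.013. Median centring gave Psmb4 -0.0015, Psmb5 -0.0029 and Psmb8 -0.0016. Second probes gave Psmb2 0.078 and Psmd9 -0.12, and Psmd8 -0.25 in place of 0.36. Leaving out pair 3 gave Psma8 -0.044, Psmb4 -0.028, Psmb7 -0.031, Psmb8 -0.0050 and Psmd7 -0.060. Without each array in turn, Psma8 had -0.048 to 0.14, Psmb2 -0.031 to 0.010, Psmb4 -0.039 to 0.065, Psmb5 -0.034 to 0.15, Psmb7 -0.019 to 0.059, Psmb8 -0.064 to 0.10, Psmd7 -0.0090 to 0.13, Psmd9 -0.052 to 0.20, Psmd13 -0.13 to 0.065 and Psme3 -0.10 to 0.0043. The cause of these shifts was not tested. Signal over background limits Psmd2, Psmd6, Psmb9, Psmd9 and Psma8, whose probes had a mean log2 intensity under 6.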
